A study of Mus musculus with 4 samples.

Results

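The 77 genes described here encode the heat shock proteins, the J-domain co-chaperones and the subunits of the CCT chaperonin. They were chosen by name: protein-coding symbols of the Hspa, Hspb, Hspd, Hspe, Hsph, Hsp90, Dnaja, Dnajb, Dnajc and numbered Cct series with an expected count of at least 10 in at least 2 of the 4 libraries. Of 55364 genes in the tables, 80 carried such a symbol and 77 reached the minimum. The libraries came from pachytene spermatocytes, the germ cells in the long middle stage of the first meiotic prophase. They were enriched from mouse testis by enzymatic digestion and elutriation, which separates cells by size in a centrifuge. Of the libraries 2 were wild-type (WT). The other 2 carried the homozygous Ddx4 knock-in (KK), Ddx4 being the gene of the germ granule RNA helicase DDX4. No other allele or treatment is labelled for either group. By its title, the study asked what germ granules made by phase separation do for RNA and for the germline.

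Chaperones bind unfolded or partly folded proteins and keep them from aggregating. HSP70 proteins do so in cycles of ATP binding and hydrolysis: J-domain proteins of the DNAJ families deliver clients and trigger hydrolysis, and nucleotide exchange factors, among them the HSP110 proteins, reset the cycle. HSP90 acts later on kinases, receptors and other clients, CCT and HSP60 are barrel-shaped chaperonins of the cytosol and of mitochondria, and small HSPs hold unfolded proteins without using ATP. Male germ cells carry their own set of paralogues, such as HSPA2, which is required for meiosis in male mice, beside the forms found in all tissues.

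Total expected counts per library ran from 17970207 to 19438570. Replicates correlated across genes (log2 CPM) at 0.996 in WT and 0.995 in KK, and libraries of different genotype at 0.983 to 0.984. Ddx4 itself was measured at 265 and 272.9 TPM (reads per transcript length, scaled to one total in every library) in WT and at 54.44 and 52.49 in KK (log2 fold change -2.34), 5.05-fold lower. The labels do not say whether the libraries of a genotype come from separate animals, so the p-values measure the spread between these libraries, which may be technical. The labelled cell type was checked on 11 pachytene markers: they summed to 12493 and 12571 CPM (counts scaled by library size and TMM factor) in WT and to 11604 and 11381 in KK, and 1 was higher and 6 were lower in KK. Markers of other cells were present as well. The 7 Leydig cell markers summed to 212.4 and 226.4 CPM in WT against 675.5 and 685.8 in KK with 6 higher, 5 peritubular and endothelial markers (of 6 listed) had 3 higher, and 9 spermatogonial markers had 6 higher and 1 lower with sums of 119 to 128.7 CPM in all libraries. Of 10 spermatid markers 4 were higher and 5 lower (4711 and 4765 CPM in WT, 3927 and 3832 in KK), and of 8 Sertoli cell markers 2 were higher and 3 lower (143 and 145.2 against 181.8 and 184.6 CPM). The rise of the Sertoli cell sum came from Ptgds, with 26.0 and 27.4 CPM in WT and 73.0 and 70.7 in KK. Gata4 was the other higher marker, and Cldn11, Dhh and Wt1 were the lower ones. Macrophage markers had 1 of 3 higher and erythroid markers 0 of 2 changed, and no marker in any list was at 0 in all libraries. The part of these cells in the chaperone results was not tested, and in bulk RNA fewer cells of a type cannot be told apart from less RNA per cell.

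As a sum, chaperone genes made up a steady share of the RNA in both genotypes. Summed over the 77 genes, TPM came to 1.68% and 1.66% of the total in WT and to 1.65% and 1.66% in KK. The sums of families within it moved in opposite directions, and they were weighted to their most abundant genes. Small HSP genes held 0.3463% and 0.3334% of all TPM in WT and 0.403% and 0.413% in KK. HSP90 genes went from 0.2602% and 0.2656% to 0.228% and 0.2319%, and HSP70 genes from 0.2375% and 0.2379% to 0.2113% and 0.2152%. Hspb9 held 3354 and 3226 of the 3464 and 3334 small HSP TPM in WT, and 3931 and 4033 of 4030 and 4130 in KK. Hspa2 held 1472 and 1475 of the 2375 and 2379 HSP70 TPM in WT, and 1188 and 1241 of 2113 and 2152 in KK. The median log2 fold change of the HSP70 genes was 0.07, although their sum fell. Levels between genes are compared on the TPM scale, which divides by transcript length. On it 72 of the 77 genes reached 1 TPM in every library and 31 reached 100 TPM. The small HSP gene Hspb9, the HSP90 gene Hsp90aa1 and the HSP70 gene Hspa2 held 41.0% and 40.9% of all chaperone TPM in WT and 41.5% and 42.6% in KK. They ranked 16th, 46th and 75th among all genes by mean WT TPM. Next came the J-protein genes Dnajb3 (rank 184) and Dnajb6 (rank 200), the chaperonin subunit Cct7 (rank 258) and the HSP110 gene Hspa4l (rank 289). Neighbours in that order were not all separated: Dnajb3 stood at 726.6 and 723.6 TPM and Dnajb6 at 727.7 and 658.5 TPM in WT, so the spread of the second covered the first. That overlap rests on few reads. The 218-base isoform Dnajb6-211 had 90.5 TPM on 3 counts in WT replicate 1 and 33.2 TPM on 1 count in WT replicate 2.

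**Figure D1:**
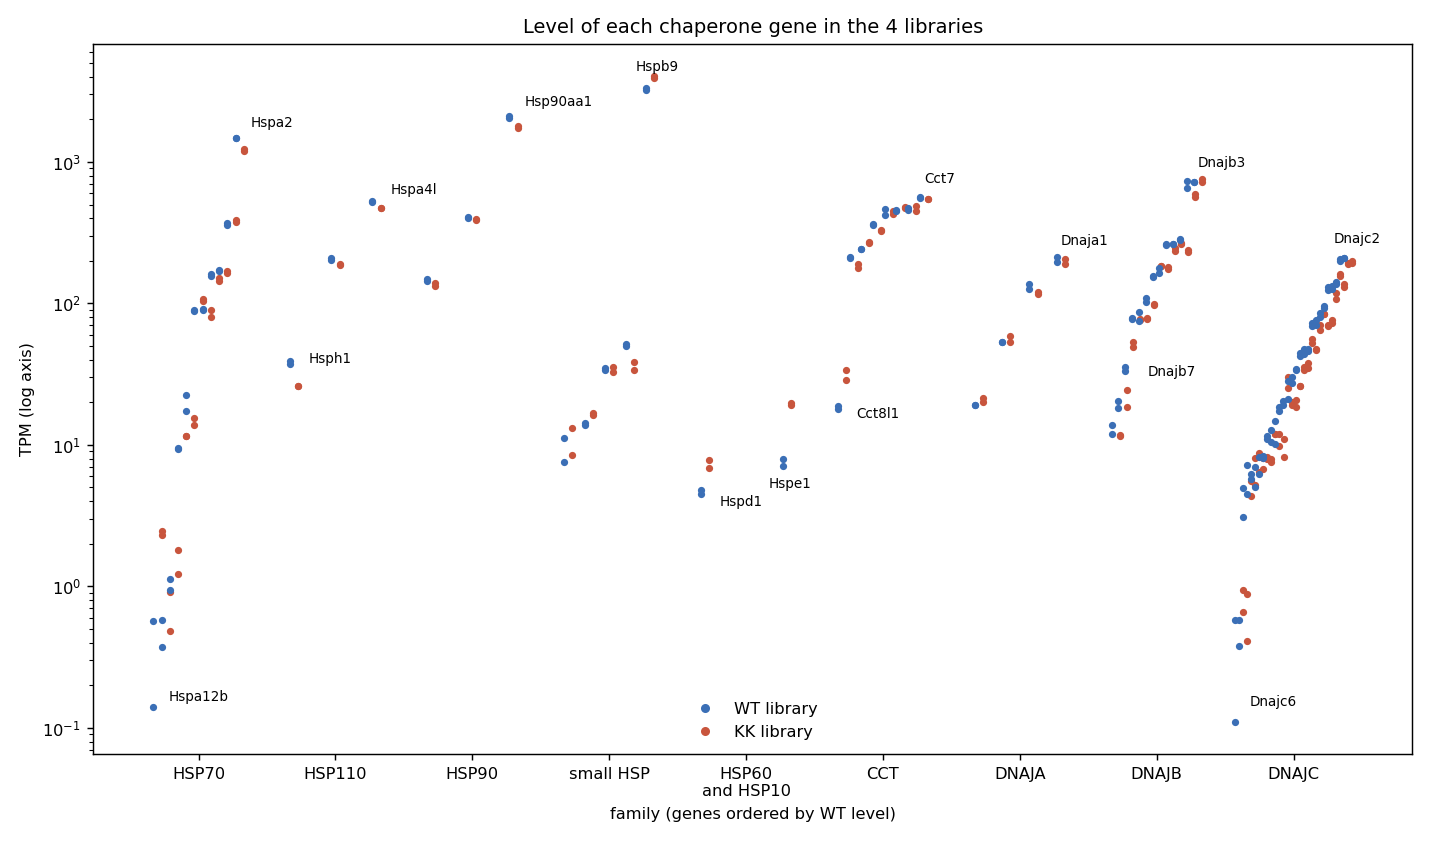
Level of each of the 77 chaperone genes in TPM (log axis), 1 point per library, with genes of a family ordered from left to right by their WT level and KK points drawn just right of the WT points. Hspb9, Hsp90aa1 and Hspa2 stand at the top, and Hspd1 and Hspe1 lie well under most members of the other families.

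Between genotypes, 17 chaperone genes were higher in KK and 26 lower, and 34 did not pass the test (edgeR's quasi-likelihood test, Benjamini-Hochberg adjusted p of 0.05 over all 16571 genes tested). Across all genes 43.7% passed, with 22.0% higher and 21.7% lower in KK, so the chaperones' share of higher genes (22.1%) was at the background and their share of lower genes (33.8%) was above it. The median log2 fold change was -0.03 for the chaperones and 0.003 for all genes. In 21 chaperone genes both KK libraries lay above both WT libraries, and in 34 both lay below, against 36.0% and 34.8% of all genes. Changes were small in size: 5 chaperone genes were at least 1.5-fold higher (Hspa12b, Dnajc6, Hspe1, Cct8l1 and Hspd1) and 0 were at least 1.5-fold lower, where 14.5% and 3.57% of all genes passed these limits. Among those 5, Hspa12b and Dnajc6 reached the count minimum only with the KK libraries, the group where they were high. The direction of the small changes depended on scaling. With library size in place of TMM factors, which moved the median of all genes from 0.003 to 0.087, 23 chaperone genes were higher and 16 lower, with a median of 0.05. The share of calls that were higher then went from 39.5% to 59.0% for chaperones and from 50.4% to 64.2% for all genes. The family medians of CCT, DNAJB and DNAJC turned from 0.00, -0.01 and -0.06 to 0.08, 0.07 and 0.03, while those of HSP110 (-0.25 to -0.17) and HSP90 (-0.11 to -0.03) stayed below 0.

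**Figure D2:**
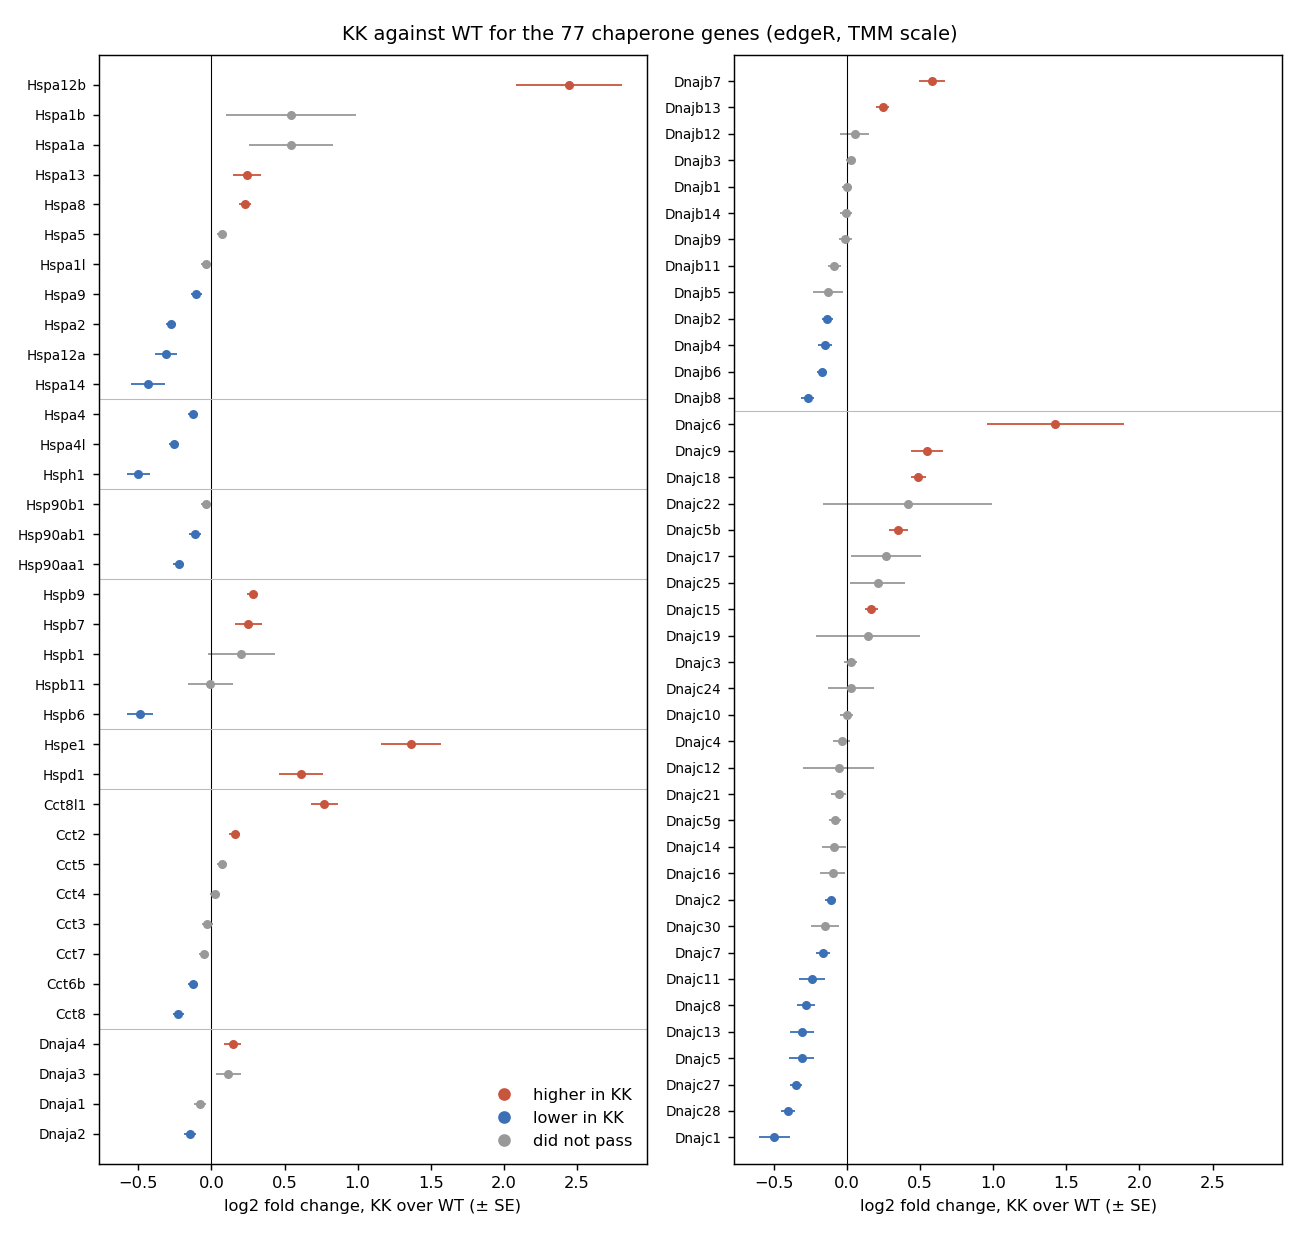
Log2 fold change of KK over WT with its standard error for the 77 chaperone genes, grouped by family and coloured by the outcome of edgeR's test. Hspa12b, Dnajc6 and Hspe1 are the 3 genes above 1, Hsph1 is lowest at -0.50, and all 3 HSP110 genes (Hspa4, Hspa4l, Hsph1) are lower in KK. Hspa12b and Dnajc6 reached the count minimum only with the KK libraries.

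The excess of lower genes went together with abundance. Of 37 chaperone genes with a mean of at least 100 CPM, 5 were higher (13.5%) and 16 lower (43.2%), where 16.6% and 49.2% of the 2446 genes that abundant were. Between 10 and 100 CPM, 8 of 26 chaperone genes were higher and 10 lower (30.8% and 38.5%), against 22.3% and 31.8% of all genes in that range. Under 10 CPM 4 of 14 were higher and 0 lower (28.6% of them higher), against 23.4% and 6.07%. Within a range of abundance, then, the chaperone shares lay within 9 percentage points of those of all genes.

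**Figure D3:**
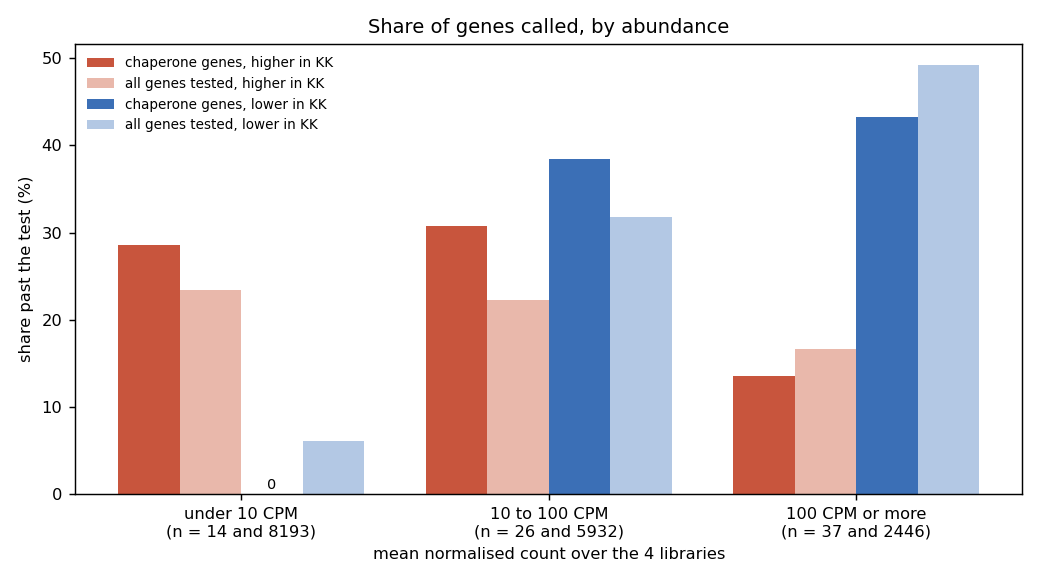
Share of genes past edgeR's test (%) in 3 ranges of mean CPM, for chaperone genes (dark bars) and all genes tested (pale bars), higher in KK in red and lower in blue. In the most abundant range 43.2% of chaperone genes and 49.2% of all genes were lower in KK.

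Genes that heat induces are switched on by heat shock factors, which bind repeats of the 3 bases GAA and TTC in the promoter. The promoter table of RefSeq (GRCm38.p6, 250 bases before to 50 after a gene's start) matched 63 of the 77 genes. It was searched for GAANNTTC and TTCNNGAA, each of which reads the same on both strands. Of the 63 genes 17 (27.0%) had a match, against 17.0% of the 27025 genes in the table. An unbroken run of 3 units, GAANNTTCNNGAA or TTCNNGAANNTTC (one the reverse of the other, and each overlapping both shorter motifs), was found for 4 chaperone genes (6.35%), namely Hspd1, Hspe1, Hsph1 and Dnajb6, and for 0.662% of all genes. A shorter match was present in 5 of 13 higher genes, 5 of 20 lower genes and 7 of 30 that did not pass, a difference that was not tested. The stretches shown are those of the longest runs, of the inducible HSP70 pair Hspa1a and Hspa1b and of the strongly raised Cct8l1, with the matching bases in capitals. Those of Hspe1, Hspd1, Dnajb6 and Hsph1 meet an annotated exon. Hspe1 and Hspd1 share theirs, read on opposite strands at chr1:55088053-55088082. Dnajb6 has its own at chr5:29735846-29735870 on the plus strand, Hsph1 at chr5:149636356-149636375 on the minus strand (its run of 3 units lies after the start and is not shown), Hspa1a at chr17:34972233-34972280 and Hspa1b at chr17:34959315-34959362, both on the minus strand, and Cct8l1 at chr5:25515911-25515958 on the plus strand.
Hspe1: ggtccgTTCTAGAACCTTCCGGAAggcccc
Hspd1: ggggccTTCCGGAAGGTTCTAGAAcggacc
Dnajb6: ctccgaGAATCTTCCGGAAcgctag
Hsph1: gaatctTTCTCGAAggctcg
Hspa1a: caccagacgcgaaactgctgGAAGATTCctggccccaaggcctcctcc
Hspa1b: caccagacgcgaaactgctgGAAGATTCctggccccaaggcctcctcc
Cct8l1: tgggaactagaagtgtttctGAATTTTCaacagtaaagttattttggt
A match describes these letters and is not evidence of binding. Genes with the longest runs went both ways: Hspd1 and Hspe1 were higher in KK, and Hsph1 and Dnajb6 were lower. The stretches of Hspa1a and Hspa1b are identical, and the genes are near-identical copies, so the reads of this pair cannot be assigned with certainty.

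The 9 heat-inducible genes did not move as a group. Hspd1 and Hspe1 were higher in KK, Hsph1 and Hsp90aa1 were lower, and 5 did not pass. Each direction held 22.2% of them, against 22.0% and 21.7% of all genes. Hspa1a, the stress-induced cytosolic HSP70, had 2.33 and 1.98 CPM in WT and 2.54 and 3.75 in KK. Its copy Hspa1b had 0.738 and 1.12 CPM in WT and 1.79 and 0.925 in KK. Both were scarce in all libraries and neither passed edgeR's test (log2 fold changes 0.54 and 0.55, adjusted p of 0.130 and 0.339). Without KK replicate 1 the log2 fold change of Hspa1a was 0.79. In each genotype the replicate with more Hspa1a had less Hspa1b, and reads of the pair cannot be assigned with certainty. The values of each copy alone therefore do not settle whether the pair changed, and their sum was not tested. Dnajb1, the J-protein partner of induced HSP70, stood at 552.6 CPM in each WT library and at 548.1 and 558.2 in KK (log2 fold change 0.00 ± 0.03, adjusted p of 0.98). For Dnajb1 the WT value lay between the KK values. The farnesylated J-protein gene Dnaja1 had 273.1 and 283 CPM against 273.8 and 253.8 and passed, lower, only without KK replicate 1 (log2 fold change -0.15, adjusted p of 0.00258). The small HSP gene Hspb1 had 5.17 and 3.48 CPM against 6.03 and 3.86, and its reads were partly shared with the pseudogene Hsp25-ps1. Immediate early genes, which respond to handling within minutes, had 8 of 10 members higher in KK (summed 92.8 and 94.0 against 151.4 and 152.6 CPM), and their part in these results was not tested.

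Among the 11 HSP70 genes, 3 were higher in KK (Hspa12b, Hspa13, Hspa8), 4 lower (Hspa14, Hspa12a, Hspa2, Hspa9) and 4 did not pass. Those shares are 27.3% higher and 36.4% lower, against 22.0% and 21.7% of all genes. Hspa2 (chr12:76404176-76406938, GRCm38), the HSP70 of meiotic male germ cells, had 2548 and 2551 CPM in WT and 2061 and 2150 in KK. Both KK libraries lay well below the WT pair. Its log2 fold change was -0.28 ± 0.04 (SE, edgeR's adjusted p of 2.3e-07), a 1.21-fold lower level. Hspa8 (chr9:40800984-40810087), the constitutive cytosolic HSP70 of all tissues, moved the other way, from 141.4 and 145.5 CPM to 165.4 and 171.9 (0.23 ± 0.04, adjusted p of 3.3e-05). The ratio of Hspa2 to Hspa8 in TPM was 16.7 and 16.4 in WT and 11.4 and 11.6 in KK, so the 2 genotypes did not overlap. Hspa2 remained by far the most abundant HSP70 transcript in both.

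The germ cell HSP70 gene Hspa1l, which lies next to Hspa1a on chromosome 17, had 285.2 and 290.8 CPM against 277.6 and 284.4 and did not pass (adjusted p of 0.459). In TPM it exceeded Hspa1a 149-fold and 181-fold in WT and 134-fold and 92.9-fold in KK. An antisense gene, Gm10501, covers 71.9% of the exon bases of Hspa1l and was assigned at most 11.1 reads in any library, and the kit does not mark strand, so the reads of the 2 genes cannot be told apart. Hspa14, a ribosome-associated HSP70, had 19.7 and 26.1 CPM in WT and 16.1 and 17.9 in KK (-0.43 ± 0.12, adjusted p of 0.00307), and without WT replicate 2 the fall was -0.22 with an adjusted p of 0.219. Hspa12a, a distant HSP70 relative, fell from 56.6 and 54.9 CPM to 45.6 and 44.5 (-0.31 ± 0.07, adjusted p of 0.00127). Most of its TPM came from short non-coding isoforms, Hspa12a-204 and Hspa12a-209, and on log2(TPM + 1) it did not pass (-0.09, limma's adjusted p of 0.382).

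Hspa12b showed the widest change of all 77 genes, and it reached the count minimum only with the KK libraries. This relative of HSPA12A, known from endothelial cells, had 6 and 22 counts in WT and 79 and 83 in KK (0.341 and 1.18 against 3.93 and 4.52 CPM). All 4 values were low, and the WT libraries differed between themselves more than the KK libraries did. The log2 fold change was 2.45 ± 0.36 (edgeR's adjusted p of 2.5e-06), a 5.45-fold higher level, with 12.1-fold without WT replicate 2 and 3.55-fold without WT replicate 1. Part of its counts went to an isoform annotated for nonsense-mediated decay, Hspa12b-203, with 0 and 4.45 counts in WT and 41.4 and 32.7 in KK. Peritubular and endothelial markers summed to 5.68 and 7.49 CPM in WT and to 12.2 and 11.6 in KK, and their part in the rise of Hspa12b was not tested. Among these markers Acta2, Cnn1 and Vwf were higher in KK, while Pecam1 (-0.80, adjusted p of 0.203) and Cdh5 (0.05, adjusted p of 0.951) did not pass.

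**Figure D4:**
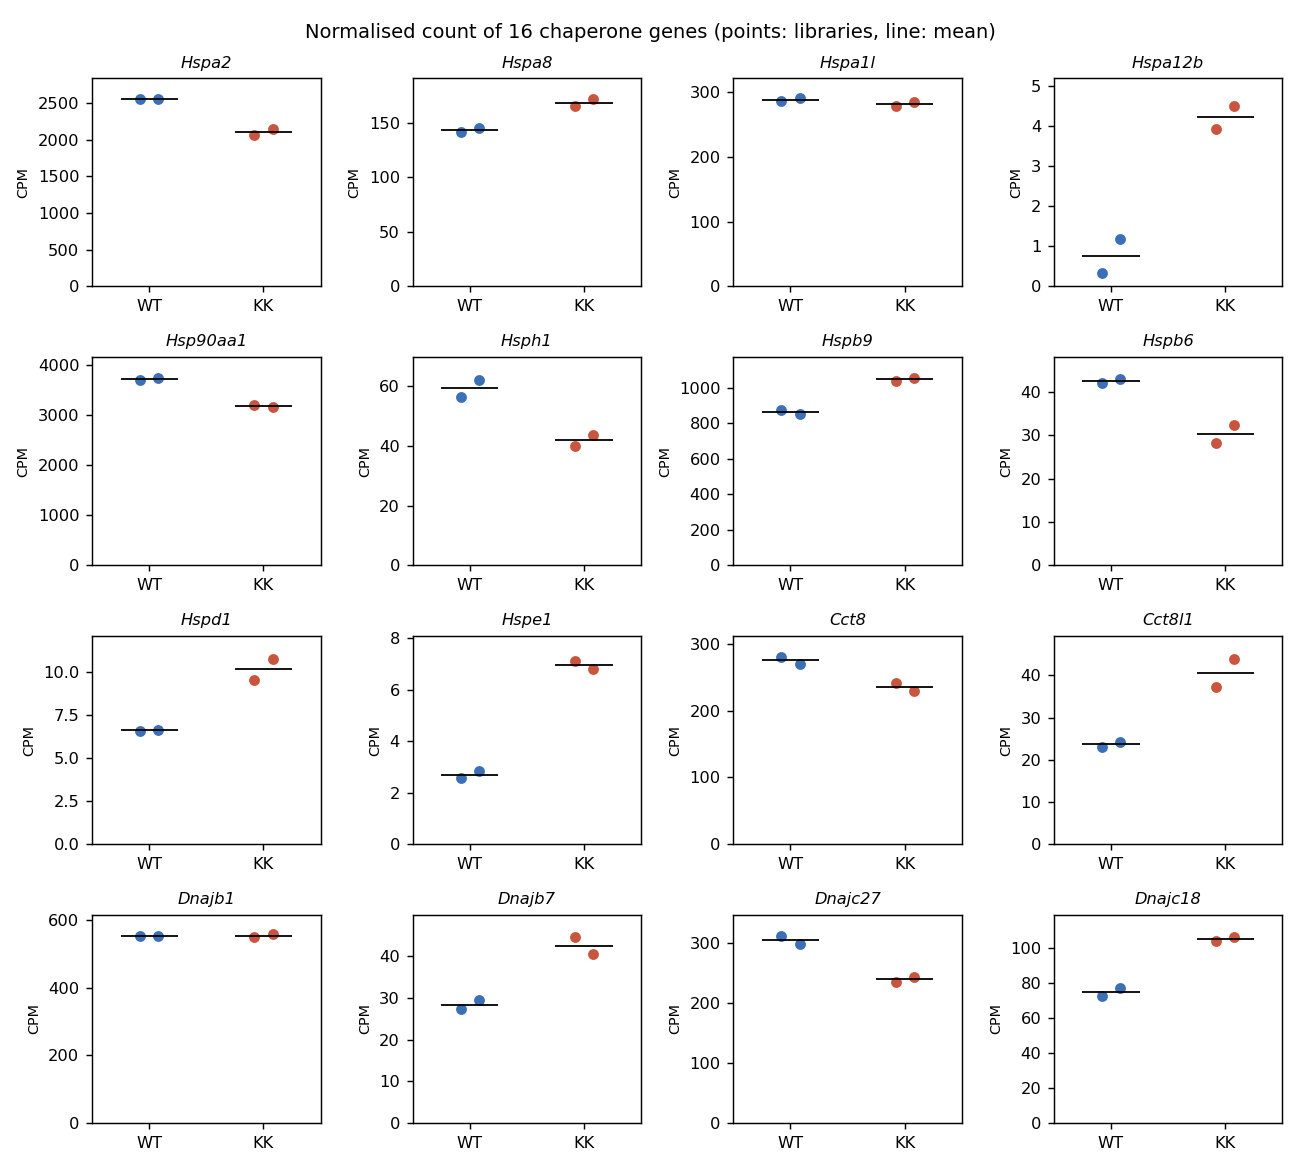
CPM of 16 chaperone genes (each axis starts at 0), with 1 point per library and a line at the mean of each genotype. Hspa2, Hsp90aa1 and Hsph1 are lower and Hspb9, Hspe1, Cct8l1 and Dnajb7 higher in both KK libraries than in both WT libraries, while the points of Dnajb1 overlap.

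All 3 HSP110 genes, whose products exchange nucleotide on HSP70, were lower in KK, and their median log2 fold change was -0.25. Under each of the 13 alternative settings the median stayed below 0, between -0.27 and -0.15. Of all genes 21.7% were lower. Among genes with a mean of at least 100 CPM, as Hspa4 and Hspa4l had, 49.2% were lower. Between 10 and 100 CPM, the range of Hsph1, 31.8% were. Hsph1 (chr5:149614287-149636376), the heat-inducible member, had 56.3 and 62.3 CPM in WT and 40.0 and 43.8 in KK. Its fall was the deepest of the 77 genes, -0.50 ± 0.08 (edgeR's adjusted p of 6.0e-06), or 1.42-fold. Hspa4l, the form enriched in germ cells, went from 1019 and 1021 CPM to 858 and 854.5 (-0.25 ± 0.03, adjusted p of 5.5e-07). Hspa4, the widely expressed form, went from 553.9 and 561.3 CPM to 518.1 and 503.1 (-0.13 ± 0.03, adjusted p of 0.00395), a call that was lost with library size scaling (-0.04) and by limma on log2(TPM + 1), with an adjusted p of 0.0552. The ratio of Hspa4l to Hspa4 in TPM was 2.54 and 2.52 in WT and 2.49 and 2.54 in KK, with overlap.

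Of the 3 HSP90 genes 2 were lower, where 21.7% of all genes were, and 49.2% of those with a mean of at least 100 CPM. All 3 had such a mean. Hsp90aa1 (chr12:110690605-110702728), the inducible cytosolic form and one abundant in germ cells, had 3702 and 3752 CPM in WT and 3205 and 3173 in KK. The pairs were clearly apart, with a log2 fold change of -0.22 ± 0.03 (edgeR's adjusted p of 5.2e-06). Hsp90ab1, the constitutive cytosolic form, had 244.2 and 238 CPM against 219.1 and 227.3 (-0.11 ± 0.04, adjusted p of 0.0192). That call did not hold without WT replicate 1 (-0.10, adjusted p of 0.137) or without KK replicate 1 (-0.10, adjusted p of 0.0557). Hsp90b1, the HSP90 of the endoplasmic reticulum, had 791.2 and 786.4 CPM against 776.2 and 759.9 and did not pass (adjusted p of 0.388). Hsp90aa1 exceeded Hsp90ab1 in TPM 13.9-fold and 14.5-fold in WT and 12.6-fold and 13.5-fold in KK.

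The 4 DNAJA genes, which have the full set of classical J-protein domains, differed by at most 0.15 on the log2 scale. Dnaja2 had 277.3 and 257.4 CPM against 247.1 and 234.7 (-0.15 ± 0.04, adjusted p of 0.00377), and without WT replicate 1 it did not pass (-0.10, adjusted p of 0.123). Dnaja4 had 73.2 and 71.8 CPM against 83.7 and 76.8 (0.15 ± 0.06, adjusted p of 0.0407). That call was lost under 7 of 13 settings, including without WT replicate 1, WT replicate 2 and KK replicate 1 (adjusted p of 0.115, 0.209 and 0.483). The gene Wdr61 overlaps 44.1% of its exon bases on the opposite strand. Dnaja3, the mitochondrial J-protein, had 32.9 and 33.0 CPM against 37.1 and 34.3 and did not pass.

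Among the 13 DNAJB genes, 2 were higher (15.4%, against 22.0% of all genes), 4 lower (30.8%, against 21.7%) and 7 did not pass. Several of them are mostly known from testis. Dnajb7 (chr15:81406926-81408299), a single-exon gene, rose from 27.4 and 29.4 CPM to 44.5 and 40.5. Both KK values exceeded both WT values by more than either pair's spread, and the log2 fold change was 0.58 ± 0.09 (edgeR's adjusted p of 3.3e-06). Dnajb13, a J-protein of the radial spokes of sperm flagella, rose from 118.3 and 121.4 CPM to 141.6 and 142.3 (0.24 ± 0.04, adjusted p of 3.2e-05). Dnajb8 fell from 147.1 and 151.5 CPM to 127 and 120.9 (-0.27 ± 0.04, adjusted p of 9.5e-06). An antisense gene, 1700031F10Rik, covers 37.2% of the exon bases of Dnajb8 and was lower as well (104.3 and 65.4 counts against 46.9 and 49.4), and the 2 genes' reads cannot be told apart without strand. Dnajb6, which keeps polyglutamine proteins from aggregating, fell from 701.8 and 703.4 CPM to 626.4 and 624.8 (-0.17 ± 0.03, adjusted p of 2.0e-04).

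Dnajb3, the most abundant J-protein gene of all 45 by mean WT TPM and also single-exon, did not differ beyond its spread, with 416.5 and 416.3 CPM in WT and 437.4 and 411.8 in KK (adjusted p of 0.563). Dnajb2 and Dnajb4 had log2 fold changes of -0.13 and -0.15. For Dnajb2 the call was lost with library size scaling (-0.05, adjusted p of 0.283), with the effective length offset (adjusted p of 0.0643) and on log2(TPM + 1), where limma's adjusted p was 0.12. For Dnajb4 the call was lost without WT replicate 2 (-0.12, adjusted p of 0.142) and without KK replicate 1 (-0.13, adjusted p of 0.0579). Dnajb5, Dnajb11, Dnajb9, Dnajb14 and Dnajb12 did not pass, with log2 fold changes from -0.13 for Dnajb5 to 0.05 for Dnajb12.

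The DNAJC family is the largest and most diverse, with 28 genes that share little beyond the J domain. In KK 5 were higher (17.9%, against 22.0% of all genes), 9 lower (32.1%, against 21.7%) and 14 did not pass. Dnajc18 rose from 72.5 and 77.2 CPM to 104.1 and 106.2 (0.49 ± 0.05, edgeR's adjusted p of 6.4e-09). On the TPM scale it had 47.8 and 43.8 against 52.7 and 56.5, a smaller difference that limma did not call (0.25, adjusted p of 0.0655). Dnajc9 (chr14:20384638-20388910), a co-chaperone of histones H3 and H4, rose from 16.1 and 18.6 CPM to 23.1 and 27.9 (0.55 ± 0.11, adjusted p of 1.4e-04). The KK libraries of Dnajc9 lay apart from one another but both above WT.

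The cysteine string proteins are J-proteins of secretory vesicles, and their 3 genes took 3 courses. Dnajc5b, the testis-enriched form, rose from 54.0 and 56.6 CPM to 72.2 and 68.9 (0.35 ± 0.06, edgeR's adjusted p of 5.6e-05). Dnajc5, the form of neurons and most tissues, fell from 36.0 and 34.6 CPM to 28.1 and 28.8 (-0.31 ± 0.09, adjusted p of 0.00519), but not on the TPM scale (-0.09, limma's adjusted p of 0.707). Dnajc5g, also testis-enriched, had 172.5 and 176.9 CPM against 163 and 167.5 and did not pass (adjusted p of 0.103). In TPM Dnajc5g exceeded Dnajc5 15.5-fold and 19.8-fold in WT and 19.0-fold and 16.2-fold in KK, with overlap between genotypes.

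Other lower DNAJC genes included Dnajc27 (chr12:4082583-4110606), a J-protein fused to a small GTPase domain, which fell from 311.2 and 298.1 CPM to 234.9 and 243.9 (-0.35 ± 0.04, edgeR's adjusted p of 1.6e-08). That is the smallest p among the 26 lower genes. The endosomal Dnajc13 fell by 0.31 on the log2 scale (43.8 and 45.4 CPM against 35.0 and 37.3) and the spliceosome-associated Dnajc8 by 0.28 (71.0 and 68.5 against 58.6 and 56.3). For Dnajc13 the call was lost with the effective length offset (-0.38, edgeR's adjusted p of 0.188) and on log2(TPM + 1) (-0.33, limma's adjusted p of 0.329). The ribosome-associated Dnajc2, the most abundant DNAJC gene by TPM, fell by 0.11, and the call was lost without WT replicate 1 (adjusted p of 0.0615) and without WT replicate 2 (0.0681). Dnajc7, an adaptor between HSP70 and HSP90, fell by 0.16, and without KK replicate 2 it did not pass (adjusted p of 0.0862). Dnajc4, the third most abundant, did not pass, with 74.5 and 71.5 CPM against 73.0 and 69.4.

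Dnajc6, the clathrin-uncoating J-protein auxilin, was rare: it had 17 and 6 counts in WT and 30 and 36 in KK. The WT values lay far apart, yet both were below KK, and edgeR gave 2.69-fold (1.43 ± 0.47, adjusted p of 0.0147). Without WT replicate 1 this became 5.24-fold, without WT replicate 2 1.77-fold with an adjusted p of 0.232, and without KK replicate 2 the adjusted p was 0.0983. Dnajc6 and Hspa12b were also the only 2 members that had 10 counts in both KK libraries but not in both WT libraries, so the count minimum let them in through the group where they were high. Dnajc22 lay just inside the minimum (10, 7, 8 and 16 counts) and did not pass the test. Just outside it were Hspb8 (1 and 4 counts in WT, 5 in each KK library), Hspb2 (1 count in all) and Hspb3 (0 counts). The remaining DNAJC genes that did not pass, namely Dnajc12, Dnajc14, Dnajc16, Dnajc17, Dnajc21, Dnajc24 and Dnajc25, had log2 fold changes from -0.10 for Dnajc16 to 0.27 for Dnajc17.

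CCT, the ring-shaped chaperonin that folds actin and tubulin, is built of distinct subunits, and their genes were among the most abundant chaperones. Of the 8 genes 2 were higher and 2 lower (25% each, against 22.0% and 21.7% of all genes), and the median was 0.00. Cct7 stood at 564.2 and 557.5 TPM in WT, Cct4 at 471.3 and 458.5, Cct5 at 453.2 and 455.1 and Cct3 at 461.7 and 424. Those 4 subunits did not pass, with log2 fold changes from -0.05 for Cct7 to 0.07 for Cct5, although Cct5 passed as higher with library size scaling (0.16) and at a minimum mean of 1 CPM (0.08, adjusted p of 0.0481). Cct2 rose from 292.5 and 287.6 CPM to 320.8 and 326.9 (0.16 ± 0.04, edgeR's adjusted p of 7.5e-04). Cct8 fell from 281.3 and 270.8 CPM to 242.3 and 229.8 (-0.23 ± 0.04, adjusted p of 2.5e-05).

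The alternative subunits differed from one another. Cct8l1 (chr5:25516067-25518027), a single-exon relative of Cct8, had 23.1 and 24.3 CPM in WT and 37.2 and 43.8 in KK. It rose 1.71-fold (0.77 ± 0.09, edgeR's adjusted p of 1.1e-07) while Cct8 fell, and the TPM ratio of Cct8 to Cct8l1 went from 12.0 and 11.1 in WT to 6.59 and 5.24 in KK. Cct6b, the testis form of the zeta subunit, fell from 418.5 and 426.4 CPM to 385.3 and 388.8 (-0.13 ± 0.04, adjusted p of 0.00451), a change not called with library size scaling (-0.04) or by limma on log2(TPM + 1), with an adjusted p of 0.051. A further pair of subunit genes falls outside the naming rule. Cct6a, annotated as a processed transcript in GENCODE M21, had 151.8 and 157.4 CPM against 142.3 and 137.1 (-0.15 ± 0.04, adjusted p of 0.00567). The ratio of Cct6b to Cct6a in TPM was 1.66 and 1.57 in WT and 1.66 and 1.76 in KK. Tcp1, which encodes the alpha subunit, was the most abundant at 2158 and 2162 TPM in WT and 2074 and 2017 in KK, and did not pass (-0.07, adjusted p of 0.108).

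In mitochondria, the chaperonin HSP60 and its lid HSP10 are encoded by Hspd1 and Hspe1. The 2 genes lie head to head on chromosome 1 and share a run of heat shock units. That run lies within the annotated bounds of Hspd1 and before the start of Hspe1. Both genes were higher in KK, where 22.0% of all genes were, and 23.4% of those with a mean under 10 CPM. Both genes had such a mean. Hspe1 (chr1:55088132-55091307) had 2.56 and 2.84 CPM in WT and 7.12 and 6.80 in KK. The pairs were far apart relative to their spread: the gene rose 2.58-fold (1.37 ± 0.20, edgeR's adjusted p of 2.8e-06). Hspd1 (chr1:55077835-55088243) had 6.59 and 6.64 CPM in WT and 9.51 and 10.8 in KK, a 1.53-fold rise (0.61 ± 0.15, adjusted p of 0.00136), and only limma on log2(TPM + 1) did not call it (0.56, adjusted p of 0.0538). The exons of the 2 genes overlap by 112 bases on opposite strands, 7.60% of those of Hspe1 and 4.24% of those of Hspd1. Of their processed pseudogenes, the 6 named for Hspe1 had 0 counts in every library and the 5 named for Hspd1 had 1 to 4.01 counts together.

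Both genes were low beside the mitochondrial HSP70. Hspa9, which encodes that HSP70, exceeded Hspd1 in TPM 32.9-fold and 35.7-fold in WT and 22.1-fold and 18.6-fold in KK. Hspa9 itself had 336.1 and 341.8 CPM against 322.3 and 308.9 (-0.10 ± 0.04, adjusted p of 0.025), and the call was lost without WT replicate 2 (adjusted p of 0.138) and without KK replicate 2 (0.0948). With the mitochondrial J-proteins added, 3 of 9 mitochondrial genes were higher, 3 lower and 3 did not pass. Each direction held 33.3% of them, against 22.0% and 21.7% of all genes. Dnajc15, a J-protein of the inner membrane, rose from 121.6 and 129.8 CPM to 145.1 and 137.4 (0.17 ± 0.05, adjusted p of 0.00336), but not without WT replicate 1 (adjusted p of 0.15) or KK replicate 1 (0.0731). Its paralogue Dnajc19 had 1.25 and 1.98 CPM against 1.89 and 1.69 and did not pass. Dnajc28 fell from 103 and 106.6 CPM to 77.6 and 81.1 (-0.40 ± 0.05, adjusted p of 1.6e-07), but limma on log2(TPM + 1) did not call it (-0.26, adjusted p of 0.0614). Dnajc11, of the cristae-organising complex, fell by 0.24 on the log2 scale, and did not pass without WT replicate 2 (adjusted p of 0.357) or KK replicate 2 (0.148). Dnajc30 had 31.8 and 29.0 CPM against 27.5 and 27.3 and did not pass.

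Of 8 chaperone genes of the endoplasmic reticulum 1 was higher, 1 lower and 6 did not pass, where 43.7% of all genes passed. Hspa5, the HSP70 of that compartment (BiP) and a standard readout of the unfolded protein response, had 650.8 and 637.2 CPM in WT and 685.2 and 669.8 in KK. Both KK values were above WT by little more than the spread of a pair, and the log2 fold change of 0.07 ± 0.03 did not pass (adjusted p of 0.0884), while it did with library size scaling (0.16), at a minimum mean of 1 CPM (0.09) and without KK replicate 2 (0.08, adjusted p of 0.0487). Dnajb9 and Dnajc3, co-chaperones of BiP that the same response induces, had log2 fold changes of -0.01 and 0.03. Dnajb11 (-0.09) and Dnajc10 (0.00) did not pass either. Hspa13 had 22.2 and 22.9 CPM against 27.4 and 26.1 (0.25 ± 0.10, adjusted p of 0.0377), a call that was lost under 7 of 13 settings, among them without WT replicate 1, WT replicate 2 and KK replicate 1 (adjusted p of 0.185, 0.0871 and 0.173). Dnajc1, which recruits BiP to the translocon, had 21.7 and 21.4 CPM against 16.3 and 14.2 (-0.50 ± 0.10, adjusted p of 2.9e-04), but its direction turned with an offset for effective length (0.14, adjusted p of 0.539) and on log2(TPM + 1) (0.15, limma's adjusted p of 0.566). The gene Mllt10 overlaps 6.43% of the exon bases of Dnajc1 on the opposite strand and was lower as well. Mllt10 had 14026 and 15233 counts in WT and 11127 and 10283 in KK, and without strand, reads from the overlap cannot be told apart.

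Small HSPs were led by one gene. Hspb9 (chr11:100713850-100714575), a testis small HSP encoded by a single exon, had 873.3 and 849.3 CPM in WT and 1039 and 1054 in KK. The 2 pairs were separate, and the rise was 1.22-fold (0.28 ± 0.03, edgeR's adjusted p of 1.2e-07). In TPM it stood at 3354 and 3226 in WT and at 3931 and 4033 in KK, more than all other small HSP genes together. Hspb6, a small HSP best known from muscle, fell from 42.1 and 42.9 CPM to 28.3 and 32.3 (-0.49 ± 0.09, adjusted p of 4.0e-05). Hspb7 rose by 0.25 on the log2 scale from 27.5 and 26.4 CPM to 31.6 and 32.6, but the call was lost under 6 of 13 settings, including without WT replicate 1, WT replicate 2 and KK replicate 2 (adjusted p of 0.0586, 0.136 and 0.095). Hspb11, an intraflagellar transport protein also named IFT25, had 7.61 and 7.65 CPM against 7.92 and 7.24 and did not pass (adjusted p of 0.971).

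Testis-enriched members did not share a direction. Of the 11, Hspb9, Dnajb7, Dnajb13 and Dnajc5b were higher, Hspa2, Hspa4l, Cct6b and Dnajb8 were lower, and Hspa1l, Dnajb3 and Dnajc5g did not pass. Each direction held 36.4% of them, against 22.0% and 21.7% of all genes. The 7 genes annotated with 1 exon in every isoform (Cct8l1, Dnajb3, Dnajb7, Dnajc30, Hspb9, Hspa1a, Hspa1b) had 3 higher and 0 lower, against 22.0% and 21.7% of all genes, and 7 genes are too few to read a pattern from. All 77 genes lie on autosomes, spread over 18 of them.

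Isoform shares, the percent of a gene's transcripts assigned to each isoform in a library, are given without a test. In 64 of the 77 genes the same isoform led in all 4 libraries. The leading isoform differed between genotypes in 4, Dnajb12, Dnajc1, Dnajc5b and Hspa12b, and varied otherwise in 9. Among those 9, Dnajc15, Dnajc5, Hspb11 and Dnajc25 had a leader shared by 1 WT and 1 KK library and another leader in the remaining libraries. How often the leader differs between genotypes over all genes was not counted. The 4 genes are therefore not shown to exceed the spread of the estimates. For Dnajc5b, Dnajc5b-203 led in WT at 58.5% and 57.9% and held 38.3% and 44.8% in KK, while Dnajc5b-201 went from 33.6% and 29.2% to 54.4% and 45.3%. Their counts show which one moved: Dnajc5b-201 had 354.9 and 343.6 counts in WT and 840.2 and 619.4 in KK, and Dnajc5b-203 had 497.9 and 549 against 477.7 and 493.9. In KK replicate 2 the 2 isoforms of Dnajc5b were nearly equal.

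For Dnajc1 a short isoform with a retained intron, Dnajc1-208 of 749 bases, held 0% and 11.7% in WT and 51.3% and 39.7% in KK, on 0 and 6.12 counts against 28.7 and 19.5. The coding Dnajc1-209 went from 72.0% and 48.7% to 37.7% and 31.7%. Dnajc1 was also the called gene whose direction differed between counts and TPM. The part of this short isoform, or of the overlapping Mllt10, in that was not tested. Dnajb12-205 led over Dnajb12-203 by 46.7% to 34.2% and 32.4% to 31.9% in WT, and trailed it by 32.5% to 36.6% and 29.3% to 45.6% in KK. Among genes with an unchanged leader, the longer Dnaja4-201 went from 19.4% and 17.8% to 25.3% and 27.4%, and 52.6% of its bases overlap Wdr61. Dnajb4-204 went from 70.8% and 59.5% to 46.2% and 53.4%. Dnajc28-203 went from 0% and 1.28% to 9.04% and 14.1%, while Dnajc28-204 went from 19.2% and 14.0% to 5.65% and 9.26%.

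**Figure D5:**
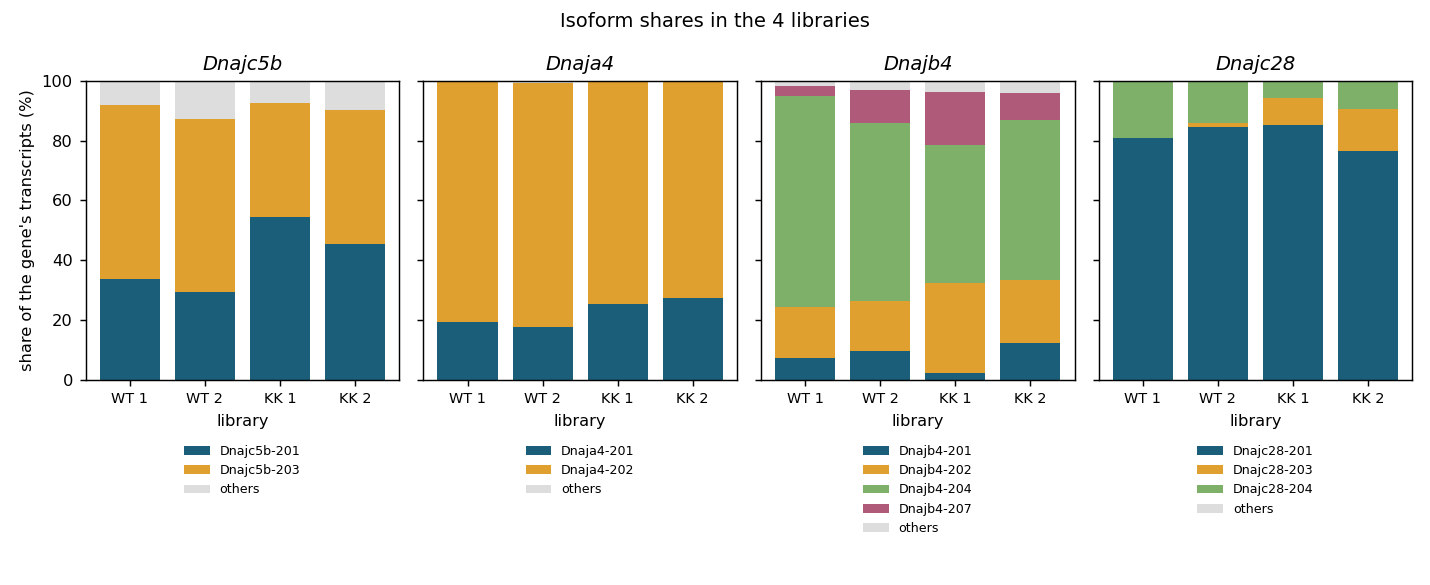
Share of each isoform (%) in the 4 libraries for Dnajc5b, Dnaja4, Dnajb4 and Dnajc28, with isoforms that stayed under 10% in every library pooled in grey. Dnajc5b-201 holds 33.6% and 29.2% in WT and 54.4% and 45.3% in KK.

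Of 63 listed genes for heat shock factors, nucleotide exchange factors, HSP90 co-chaperones, prefoldin subunits and related proteins, 61 were tested, 6 were higher and 19 lower, with a median log2 fold change of -0.07. Of all genes 22.0% were higher and 21.7% lower. These shares were 23.4% and 6.07% under 10 CPM, 22.3% and 31.8% between 10 and 100 CPM, and 16.6% and 49.2% from 100 CPM. The listed genes were not divided by abundance. With library size scaling 14 were higher and 12 lower (median 0.01). Hsf1, the main heat shock factor, had 39.6 and 44.4 CPM in WT and 42.0 and 42.7 in KK and did not pass (0.01, adjusted p of 0.933). Hsf2, a heat shock factor with a role in meiosis, rose from 17.5 and 18.7 CPM to 26.2 and 23.8 (0.47 ± 0.10, edgeR's adjusted p of 3.8e-04). Hsf5, a factor specific to spermatocytes, fell from 388.2 and 378.5 CPM to 299.5 and 299.8 (-0.36 ± 0.04, adjusted p of 3.5e-09). Hsf3 had 0 counts in every library and Hsf4 had 2 counts in KK replicate 2 only.

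Besides Hsf2, the higher partners were Serpinh1 (the collagen chaperone HSP47, with 0 and 4 counts in WT and 30 and 21 in KK), Nudcd2 (log2 fold change 1.06), Sil1 (0.17), Pfdn5 (0.12) and Sugt1 (0.12). Sil1 exchanges nucleotide on BiP, Pfdn5 is a prefoldin subunit that hands proteins to CCT, and Sugt1 and Nudcd2 act with HSP90. Lower partners included Pdcl (-0.53), Dnlz (-0.52), Ppp5c (-0.49), Bag3 (-0.49) and Sec63 (-0.36). Bag3 joins HSP70 to small HSPs in autophagy and had 67.8 and 67.4 CPM in WT and 48.9 and 47.7 in KK. Ppp5c, the phosphatase bound to HSP90, had 146.2 and 145.4 CPM against 102 and 105.3. Pdcl assists CCT, Dnlz keeps HSPA9 soluble, and Sec63 carries a J domain outside the DNAJ names.

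Alternative settings left 20 of the 43 calls in place throughout. Most losses came in limma on log2(TPM + 1), with 7 of 17 higher and 16 of 26 lower calls, and with the effective length offset, with 4 and 11. Library size scaling ended 0 and 10, and DESeq2 4 and 4. Across 13 of them, the higher genes called every time were Cct2, Hspa8, Dnajb13, Hspb9, Dnajc5b, Dnajc9, Dnajb7, Cct8l1, Hspe1 and Hspa12b. The lower genes called every time were Hsph1, Hspb6, Dnajc27, Dnajc8, Hspa2, Dnajb8, Hspa4l, Cct8, Hsp90aa1 and Dnajb6. Of the 34 genes that did not pass, 26 stayed so under every setting. Reads shared with other genes touch some members: 29 share exon bases with another gene, 18 of them at least 5% of their own, and 17 had expected counts that were not whole, as happens when reads are divided between genes.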

How the data were processed

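Per the labels' protocols, the 4 total RNA libraries were prepared without strand information. Bowtie and the builds mm10 and GRCm38 are named in the submitters' processing notes. The quantifier and its annotation were not given in the sources used here. For each gene and isoform the authors deposited expected counts (estimates, not all whole), TPM and effective lengths, per the file headers, and for each isoform the percent it holds of its gene's transcripts. TPM is by definition scaled to the same total in each library after division by length. Symbols and coordinates came from GENCODE M21 (55104 of 55364 gene identifiers found).

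Expected counts were rounded. Genotypes were compared with edgeR 4.0.16 (R 4.3.3): TMM factors, the default expression filter, genotype as the one term of the quasi-likelihood fit, and a Benjamini-Hochberg threshold of 0.05 over all 16571 genes. The procedure was also run on simulated data in which far fewer genes changed than were called here, and no result of that run is used. Standard errors were obtained by dividing the log2 fold change by the root of its F statistic. CPM used TMM-scaled library sizes. With 2 libraries per genotype, 2 residual degrees of freedom remain. The alternatives were other scaling factors, other filters, an effective length offset, replicate blocks, each library left out, DESeq2 1.42.0 and limma 3.58.1 on log2(TPM + 1). The chaperone genes and lists were chosen with earlier results of these data known.

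Named genes were up to 10 risers and 10 fallers with the largest change (mean of at least 1 CPM, no overlap), the 3 most abundant of each family, fixed lists by role and compartment, genes next to the count minimum, and genes whose leading isoform differed between genotypes. Protein features were not analysed here.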

Additional observations from a re-analysis of the deposited data

How the results depend on the processing

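The 43 chaperone genes called kept their direction under the 13 settings tried, except Dnajc1 (0.14 with the effective length offset and 0.15 in limma on log2 TPM, against -0.50), and 23 of the 43 calls were lost or turned somewhere. Among genes that did not pass, some changed sign, for example Hspb1, Dnajc19 and Dnajc22 with 1 library left out. Counts of chaperone genes higher and lower were 17 and 26. Lower genes numbered 16 with library size scaling, 15 with the effective length offset and 10 in limma, and higher genes 10 in limma. The median log2 fold change of -0.03 became 0.05 with library size scaling and -0.01 in limma, and ran from -0.06 to -0.03 with 1 library left out, lowest without KK replicate 1. Leaving out 1 library gave 13 to 16 higher and 21 to 25 lower chaperone genes, and 2916 to 3095 higher and 3009 to 3457 lower genes overall. Over all genes 3648 were higher and 3589 lower. With the effective length offset these were 2381 and 2283 and in limma 2275 and 1551, and DESeq2 called 2405 higher. The cause of these differences was not tested. The median of the small HSP genes, 0.21, became -0.09 without KK replicate 1 and -0.01 without WT replicate 2. That of the HSP70 genes, 0.07, became -0.03 without KK replicate 1.

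With a replicate block 17 chaperone genes were higher and 26 lower, and 3675 and 3634 of all genes. The replicate numbers share only a number by the labels, and the differences between replicates 1 and 2 correlated at -0.236 between genotypes across 10109 genes. With the pairing crossed, a setting chosen after seeing the data, 18 chaperone genes were higher and 26 lower, and 3758 and 3751 of all genes.

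Depth limits the genes with few reads: the standard error of the log2 fold change was 0.58 for Dnajc22, 0.47 for Dnajc6, 0.44 for Hspa1b and 0.35 for Dnajc19, and small differences were not detectable there.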
